A study of Homo sapiens with 9 samples.

Results

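The cholesterol synthesis and SREBP target genes are 34 genes named by symbol, covering the enzymes of the mevalonate pathway, the later steps to sterols, the sensors and transcription factors that set their transcription, the enzymes that make and use fatty acids, and a pair of sterol carriers. Each gene was read on a human expression array by the brightest of the probe sets that carry its symbol. Of the 34 genes, 30 were read by a probe set with a single gene symbol, and all 30 passed the filter on low values, out of 14863 genes tested in all. CYP51A1 and FADS1 were read by probe sets that carry a further symbol, and FDFT1 and ACSL3 had no probe set in the annotation used, so the expression of these 4 genes was not analysed here.

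PC3 is an established human prostate cancer cell line. It was grown for 48 h alone (untreated PC3, 2 arrays) or below inserts that held primary mouse osteoblasts and kept the cell types apart. The osteoblasts came from the calvaria of neonatal pups, either Sost knockouts without added protein (OB SostKO, 2 arrays) or wild-type controls (given as C57BL/6J and as C57BL/6N by the study) with recombinant human DKK1 at 100 ng/ml (OB WT + rhDKK1, 2 arrays) or recombinant human SOST at 100 ng/ml (OB WT + rhSOST, 3 arrays). Sost encodes sclerostin, which like DKK1 is a secreted antagonist of Wnt signalling. No array of PC3 beside wild-type osteoblasts without protein was among those analysed, so the effect of the osteoblasts and of the protein cannot be told apart. The arrays are labelled as biological replicates and nothing says that they came from separate cultures, so each p-value measures the spread between these arrays.

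Cells keep their sterol level by feedback. When membrane sterol falls, SCAP carries the SREBP factors from the endoplasmic reticulum to the Golgi, where proteases release the part that enters the nucleus and switches on the genes of sterol and fatty acid synthesis. When sterol is plentiful, INSIG proteins hold SCAP back and these genes fall together. Prostate cancer cells are known for high lipid synthesis, with SREBP activity and FASN often raised.

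A single gene of the 30, FDPS, passed the test in the comparisons with untreated PC3, and it was higher beside osteoblasts in all 3 of them. FDPS makes farnesyl diphosphate, from which sterols and the prenyl groups of small GTPases are built. The other 29 genes did not pass in any comparison, and no gene passed as lower. For most of the 30 genes the spread of the brightest probe set between arrays bounded the difference narrowly, as for most genes tested. These intervals leave out the other probe sets and the handling differences between arrays, both given below. The 95% interval lay within 1.5-fold of no change for 28 with OB WT + rhSOST, 27 with OB WT + rhDKK1 and 26 with OB SostKO. It lay within 2-fold for 30, 29 and 29. Of all 14863 genes, 12824, 12241 and 12323 lay within 1.5-fold in the same order, and 14643, 14453 and 14437 within 2-fold. Below, where 3 values follow each other, they are for the Sost knockout, the rhDKK1 and the rhSOST co-culture in this order.

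Promoters are shown for 3 of the genes because the results turn on them: FDPS, the gene that passed; AACS, the next nearest to the threshold with OB SostKO and OB WT + rhSOST; and INSIG1, a feedback target of the SREBP factors that did not pass. The sequences are those of RefSeq, build GRCh38.p14, from 250 bases before to 50 bases after the annotated start. Capitals mark a CCAAT box, a GC box (GGGCGG) or an E-box (CACGTG) on either strand.
FDPS, chr1:155308616-155308915, plus strand: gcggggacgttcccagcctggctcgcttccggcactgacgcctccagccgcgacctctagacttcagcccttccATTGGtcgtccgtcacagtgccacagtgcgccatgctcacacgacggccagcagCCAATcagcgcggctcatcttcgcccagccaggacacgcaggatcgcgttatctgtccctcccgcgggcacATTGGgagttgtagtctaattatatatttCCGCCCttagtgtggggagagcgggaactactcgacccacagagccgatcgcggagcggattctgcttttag
AACS, chr12:125065185-125065484, plus strand: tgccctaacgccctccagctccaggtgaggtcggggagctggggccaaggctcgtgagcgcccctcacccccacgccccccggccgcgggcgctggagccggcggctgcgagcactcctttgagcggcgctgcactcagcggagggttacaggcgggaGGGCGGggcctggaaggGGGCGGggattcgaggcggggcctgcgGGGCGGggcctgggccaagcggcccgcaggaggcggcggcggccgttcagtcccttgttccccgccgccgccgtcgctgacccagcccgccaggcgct
INSIG1, chr7:155297628-155297927, plus strand: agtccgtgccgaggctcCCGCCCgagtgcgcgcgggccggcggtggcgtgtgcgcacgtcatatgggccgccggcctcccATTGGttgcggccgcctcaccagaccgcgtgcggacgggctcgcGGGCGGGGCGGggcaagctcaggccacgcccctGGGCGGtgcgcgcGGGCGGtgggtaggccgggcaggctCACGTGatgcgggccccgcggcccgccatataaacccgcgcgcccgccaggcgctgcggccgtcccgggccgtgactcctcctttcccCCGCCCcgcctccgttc

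The FDPS window held 3 CCAAT boxes, whose first bases lie at -176, -122 and -51 from the start, and a GC box at -22. The AACS window held 3 GC boxes and no CCAAT box. The INSIG1 window held 6 GC boxes, of which the pair at -126 and -121 overlap by 1 base, a CCAAT box at -170 and an E-box at -55. A classical sterol regulatory element (TCACNCCAC) was in none of the 3 windows. Over the 42 RefSeq promoters found for 30 of the 34 genes (CYP51A1, FADS1 and ACSL3 among them), 57.1% held a CCAAT box and 88.1% a GC box on either strand, against 34.6% and 45% of all 35116 promoters of this length. The sterol regulatory element was in 2.38% of them, that of SREBF2, against 1.13% of all, and the E-box in 14.3% against 7.26%. These matches describe the letters of the windows and nothing of what binds there.

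Values are log2 intensities as deposited, and a log2 difference of 1 is a 2-fold change. Before the single genes are described, a difference between the arrays has to be given, because it runs along every comparison with untreated PC3. Control RNAs with a poly-A tail, spiked in before labelling, averaged 11.32 ± 0.48 (SD, n = 2) for untreated PC3 but 6.65 ± 0.28 (SD, n = 7) with osteoblasts (exact permutation p = 0.0278, two-sided, the smallest 2 against 7 arrays can give). The difference between the 3′ and 5′ probe sets of ACTB was 0.69 ± 0.27 and 1.38 ± 0.33 (exact p = 0.0278), while that of GAPDH was 0.19 and 0.20 (exact p = 0.917). The hybridisation controls, added after labelling, averaged 11.01 ± 0.48 and 10.44 ± 0.12 (exact p = 0.0278). The array medians, from 5.44 to 5.52, were 5.48 and 5.47 on average (exact p = 0.611). The part of RNA, labelling and hybridisation handling in the results was not tested, and it cannot be told apart from co-culture. All 5 markers chosen for PC3 were measured (KRT8, KRT18, KRT19 and EPCAM of epithelium, and VIM, a mesenchymal gene that PC3 also expresses), and none passed. VIM differed by 0.21, 0.22 and 0.12 (lowest adjusted p 0.183). The summed level of the 5 was 35900 to 36950 on the untreated and 37460 to 40080 on the co-culture arrays in linear units. Of 9 osteoblast markers 5 passed the filter, with summed levels of 1038 to 1141 and 893.7 to 1532, and SP7, BGLAP, COL1A2 and DMP1 did not pass it. The prostate lineage markers KLK2, KLK3 and TMPRSS2 summed to 288.9 to 350.9 and 250.8 to 313.3, and none passed the test. In bulk RNA fewer cells of a type and less RNA per cell cannot be told apart.

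Read against all genes, the genes of the pathway did not stand out by number. With OB SostKO, 1 of 30 passed as higher (3.33%) and none as lower, where 2.07% of all genes passed as higher and 1.65% as lower. With OB WT + rhDKK1 it was again 1 of 30 beside 2.5% higher and 1.76% lower of all genes. With OB WT + rhSOST it was 1 of 30 beside 4.87% higher and 2.1% lower. The median log2 difference of the 30 genes was -0.01, 0.02 and 0.08 in that order, and -0.01, -0.01 and 0.02 over all genes. The 3 comparisons share the same 2 untreated arrays, so a gene high in 1 of them tends to be high in the others.

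**Figure D1:**
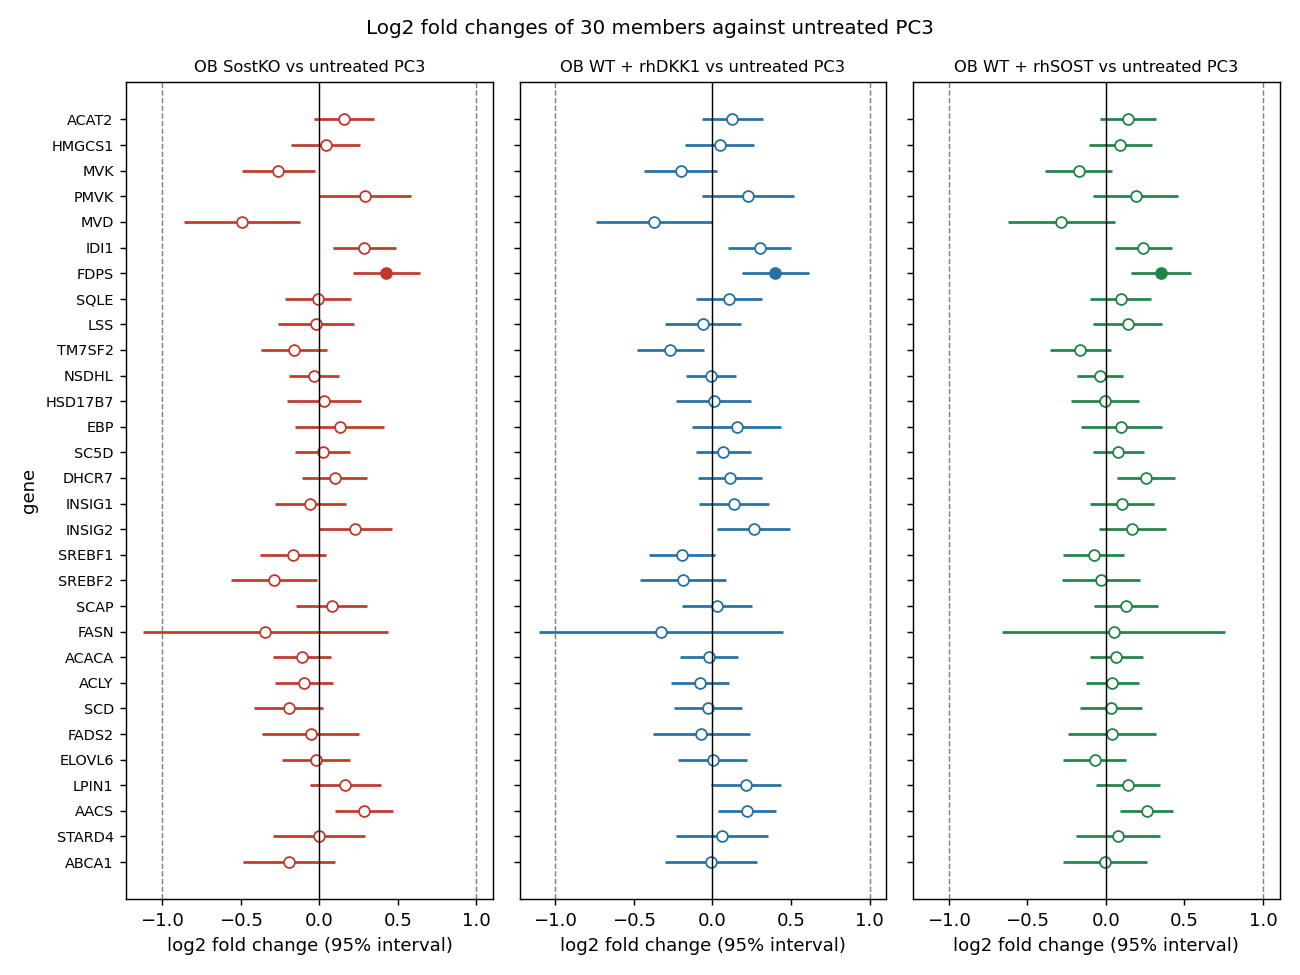
Log2 fold change of the 30 measured genes against untreated PC3, 1 panel for each co-culture, with 95% limma intervals; filled points passed at an adjusted p under 0.05, and the dashed lines mark a 2-fold change. FDPS is filled in each panel at 0.43, 0.40 and 0.35, and FASN has the widest interval.

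The early enzymes of the mevalonate arm turn acetyl-CoA into the 5-carbon and 15-carbon isoprene units. FDPS read 10.97 and 10.89 on the untreated arrays, 11.47 and 11.25 with OB SostKO, 11.27 and 11.39 with OB WT + rhDKK1, and 11.29, 11.32 and 11.24 with OB WT + rhSOST. All 7 co-culture arrays lay above both untreated arrays. The rise over untreated PC3 was 0.43 ± 0.09 (SE; 1.35-fold, limma adjusted p = 0.0432) in the Sost knockout co-culture, 0.40 ± 0.09 (1.32-fold, adjusted p = 0.0499) in that with rhDKK1 and 0.35 ± 0.08 (1.28-fold, adjusted p = 0.0432) in that with rhSOST. These calls were close to the threshold. The limma alternatives were first read where every group kept at least 2 arrays. In them the adjusted p of FDPS went from 0.0319 to 0.176, from 0.0368 to 0.0919 and from 0.0323 to 0.132. Leaving out OB WT + rhSOST array 1 or 2 ended the call in all 3 comparisons. Calls over all genes dropped there too, to 381, 423 and 563 for array 1. For array 2 the totals dropped to 337, 389 and 368, from 553, 633 and 1036 in the main fit. Lost calls there were not particular to FDPS. Without array 3 the adjusted p of FDPS was 0.0520 with rhDKK1 and 0.0582 with rhSOST, where 823 and 967 genes passed. The other leave-outs kept a single array in a group, so only differences are given. Without untreated array 1 they were 0.47, 0.44 and 0.39, and without untreated array 2 0.39, 0.36 and 0.31. With OB SostKO it was 0.32 and 0.54 without its arrays 1 and 2, and with OB WT + rhDKK1 0.46 and 0.34.

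IDI1, which interconverts the isoprene units that FDPS joins, was likewise higher on each co-culture array. It read 10.06 and 9.96 on the untreated arrays, 10.38 and 10.21 with OB SostKO, 10.28 and 10.34 with OB WT + rhDKK1, and 10.17, 10.31 and 10.26 with OB WT + rhSOST. None of the groups with osteoblasts overlapped untreated PC3, with log2 differences of 0.29, 0.30 and 0.24, but none passed (adjusted p = 0.109, 0.0942 and 0.114). Its probe set is of the type that can bind related transcripts. ACAT2, the cytosolic thiolase that joins acetyl-CoA units, differed by 0.16, 0.13 and 0.14, and HMGCS1, which makes HMG-CoA, by 0.04, 0.04 and 0.09. PMVK, the kinase of phosphomevalonate, differed by 0.29, 0.23 and 0.19, and MVK, the kinase of mevalonate, by -0.26, -0.20 and -0.17, neither passing.

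MVD, which removes the carboxyl group from mevalonate diphosphate, had the most negative difference of the 30 genes in each of these comparisons. It read 6.16 and 6.25 on the untreated arrays, 5.85 and 5.58 with OB SostKO, 5.76 and 5.90 with OB WT + rhDKK1, and 5.79, 5.74 and 6.23 with OB WT + rhSOST. Of the 7 co-culture arrays, 6 lay below both untreated arrays and OB WT + rhSOST array 3 lay between them. The differences of -0.49 ± 0.16, -0.37 ± 0.16 and -0.28 ± 0.15 (SE) did not pass (adjusted p = 0.137, 0.233 and 0.293). Without OB WT + rhSOST array 3, which enters the estimate of spread, the same -0.49 with OB SostKO had an adjusted p of 0.0402, and the difference with OB WT + rhSOST was -0.44 (adjusted p = 0.0511). In that fit 788 and 967 of all 14863 genes passed in these comparisons, where 553 and 1036 did in the main fit. Without OB WT + rhSOST array 1 or 2 instead, the adjusted p of MVD with OB SostKO was 0.163 and 0.149. Across the mevalonate arm, 5 of 7 genes had positive differences in each comparison and MVD and MVK negative ones, with a median of 0.16, 0.13 and 0.14.

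**Figure D2:**
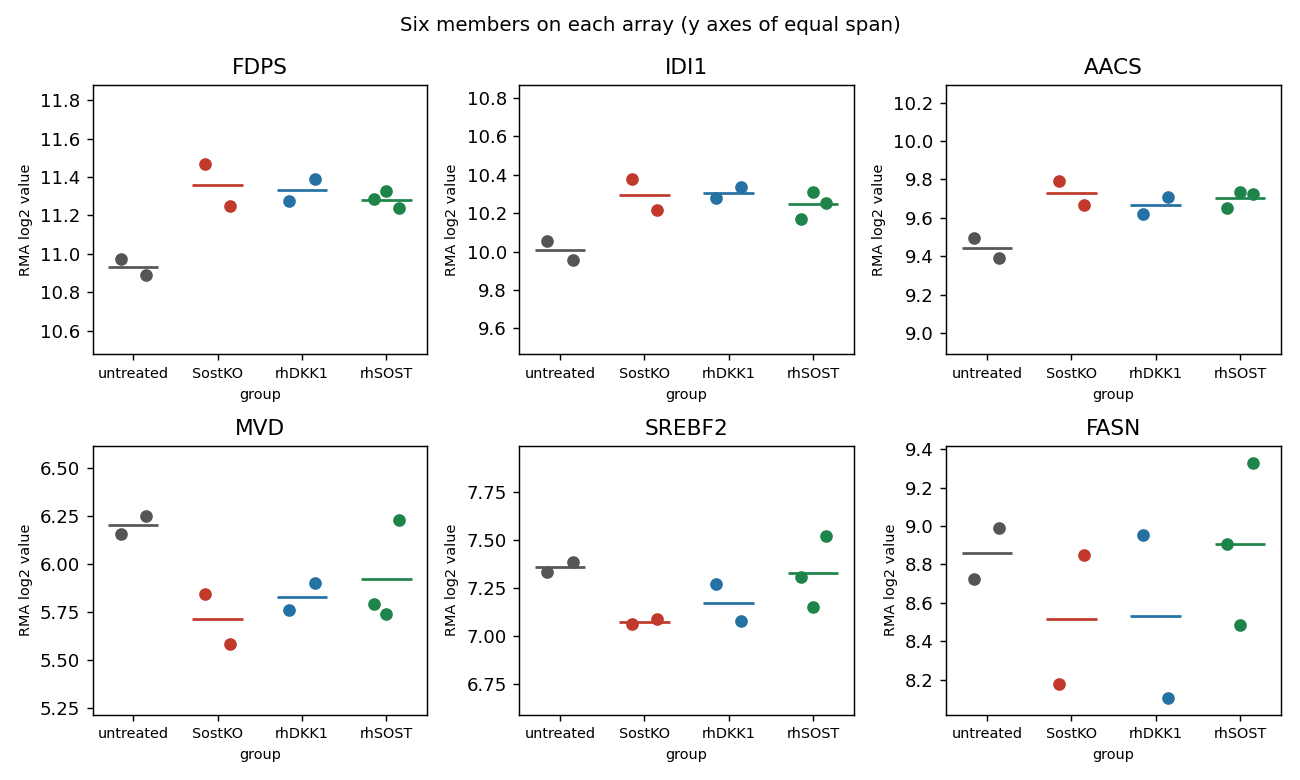
RMA log2 value of 6 genes on each of the 9 arrays by group, points for arrays and lines for group means, with y axes that span the same number of log2 units. FDPS, IDI1 and AACS are above both untreated arrays on all 7 co-culture arrays, while for FASN the arrays of each co-culture group lie on both sides of a wide range, from 8.11 to 9.33.

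The sterol steps fold squalene into the ring and trim it to cholesterol. None of the 8 measured genes passed, and their median differences were 0.01, 0.04 and 0.09. The gene with the smallest p was DHCR7, the reductase of the last step, which read 9.61 and 9.77 on the untreated arrays, 9.73 and 9.85 with OB SostKO, 9.81 and 9.79 with OB WT + rhDKK1, and 9.92, 9.88 and 10.04 with OB WT + rhSOST. The rhSOST arrays were the 3 highest of the 9, 0.26 ± 0.08 (SE) above untreated PC3 (adjusted p = 0.105). TM7SF2, a sterol reductase of the nuclear and endoplasmic reticulum membrane, read 6.94 and 7.10 untreated, 6.85 and 6.87 with OB SostKO, 6.73 and 6.77 with OB WT + rhDKK1, and 6.75, 6.86 and 6.96 with OB WT + rhSOST. It was lowest with OB WT + rhDKK1, at a difference of -0.27 ± 0.09 (SE; adjusted p = 0.146), and the groups overlapped at OB WT + rhSOST array 3. SQLE, the oxygenase that is a control point of the pathway, differed by -0.01, 0.11 and 0.09, and LSS, which closes the sterol ring, by -0.02, -0.06 and 0.14. EBP, an isomerase, differed by 0.13, 0.15 and 0.10, and SC5D, a desaturase, by 0.02, 0.07 and 0.08. NSDHL and HSD17B7, which take part in removing methyl groups from the ring, stayed between -0.04 and 0.03.

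The sensors and factors showed no difference that passed, in 5 of 5 genes. SREBF2, the SREBP most tied to sterol genes, read 7.33 and 7.38 on the untreated arrays, 7.06 and 7.09 with OB SostKO, 7.27 and 7.08 with OB WT + rhDKK1, and 7.31, 7.15 and 7.52 with OB WT + rhSOST. Both OB SostKO arrays were below both untreated arrays, by -0.29 ± 0.12 (SE; adjusted p = 0.224), while the rhSOST arrays lay on both sides of them. SREBF1, the SREBP most tied to fatty acid genes, read 7.27 and 7.44 untreated, 7.10 and 7.28 with OB SostKO, 7.19 and 7.13 with OB WT + rhDKK1, and 7.24, 7.24 and 7.34 with OB WT + rhSOST. Its differences were -0.16, -0.19 and -0.08, and an OB SostKO array and an OB WT + rhSOST array lay between the untreated arrays.

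SCAP, the carrier of the SREBPs, read 9.60 and 9.87 on the untreated arrays, and all 7 co-culture arrays fell between 9.71 and 9.92. INSIG1 read 8.72 and 8.74 untreated, 8.53 and 8.82 with OB SostKO, 8.88 and 8.85 with OB WT + rhDKK1, and 8.81, 8.87 and 8.82 with OB WT + rhSOST. Its differences of -0.06, 0.13 and 0.10 did not pass, and 1 OB SostKO array was the lowest of the 9 with the other above both untreated arrays. INSIG2, the INSIG less dependent on the SREBPs, read 9.47 and 9.39 untreated, 9.67 and 9.65 with OB SostKO, 9.65 and 9.75 with OB WT + rhDKK1, and 9.43, 9.72 and 9.65 with OB WT + rhSOST. It was higher on 6 of 7 co-culture arrays, at 0.23, 0.26 and 0.17, without passing (adjusted p = 0.249, 0.188 and 0.316).

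Fatty acid synthesis is driven in large part by the product of SREBF1. None of its 8 measured genes passed, with medians of -0.07, -0.02 and 0.05. AACS, which activates ketone bodies for lipid synthesis, came nearest. It read 9.49 and 9.39 on the untreated arrays, 9.79 and 9.67 with OB SostKO, 9.62 and 9.71 with OB WT + rhDKK1, and 9.65, 9.73 and 9.73 with OB WT + rhSOST. All 7 co-culture arrays were above both untreated arrays, by 0.29, 0.22 and 0.26 (adjusted p = 0.0926, 0.164 and 0.0725). LPIN1, a phosphatidate phosphatase, read 9.68 and 9.72 untreated, 9.97 and 9.77 with OB SostKO, 9.91 and 9.92 with OB WT + rhDKK1, and 9.74, 9.96 and 9.82 with OB WT + rhSOST. It was higher on all 7 as well, by 0.17, 0.21 and 0.14 (adjusted p = 0.377, 0.259 and 0.390).

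SCD, the desaturase that makes monounsaturated fatty acids, read 10.47 and 10.42 on the untreated arrays, 10.16 and 10.34 with OB SostKO, 10.42 and 10.42 with OB WT + rhDKK1, and 10.35, 10.53 and 10.56 with OB WT + rhSOST. The OB SostKO arrays were the 2 lowest, at -0.19 ± 0.10 (SE; adjusted p = 0.292), and the other differences were -0.03 and 0.03. ACLY, which supplies cytosolic acetyl-CoA, differed by -0.09, -0.08 and 0.04, and ACACA, which makes malonyl-CoA, by -0.11, -0.02 and 0.07. FADS2 and ELOVL6, a desaturase and an elongase, stayed between -0.07 and 0.04.

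The carriers of sterol did not pass the test either. STARD4, which moves cholesterol between membranes, read 6.86 and 7.03 untreated, 6.88 and 7.02 with OB SostKO, 7.01 and 7.01 with OB WT + rhDKK1, and 6.81, 7.06 and 7.21 with OB WT + rhSOST. ABCA1, the exporter that LXR receptors switch on when sterol is plentiful, read 6.77 and 6.75 untreated, 6.34 and 6.78 with OB SostKO, 6.79 and 6.70 with OB WT + rhDKK1, and 6.72, 6.72 and 6.81 with OB WT + rhSOST. A single OB SostKO array was low, the groups overlapped for both genes, and the lowest adjusted p of either was 0.430.

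**Figure D3:**
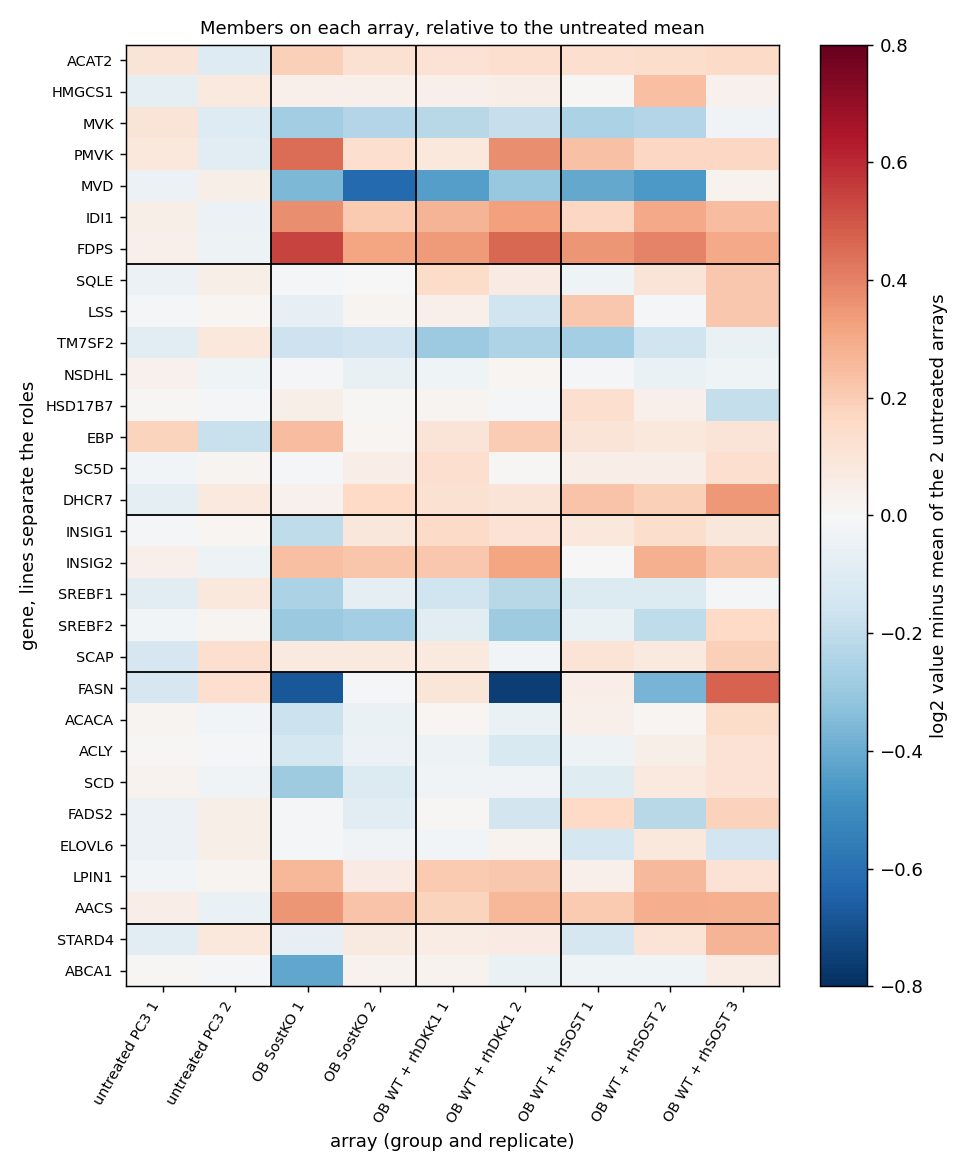
Each of the 30 genes (rows, grouped by role) on each of the 9 arrays (columns) as a log2 difference from the mean of the 2 untreated arrays, red above and blue below. FDPS, IDI1, AACS, LPIN1 and ACAT2 are above both untreated arrays on all 7 co-culture arrays, and the FASN row ranges from -0.68 to -0.0072 within OB SostKO and from below to above 0 within the other co-cultures.

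Counted over arrays, 5 of 30 genes (ACAT2, IDI1, FDPS, LPIN1 and AACS) had all 7 co-culture arrays above both untreated arrays, and none had all 7 below. Among all genes 15.4% had all 7 above and 11.3% all 7 below. The other 25 genes overlapped. At an unadjusted p under 0.05, 6, 6 and 4 of 30 genes differed from untreated PC3, where 3081, 3173 and 3507 of all 14863 genes did.

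The co-cultures were then set against each other, which leaves the untreated arrays out of the difference. None of the 30 genes differed by limma in any of the 3 comparisons, and 0% of all 14863 genes did (OB SostKO vs OB WT + rhSOST, OB WT + rhDKK1 vs OB WT + rhSOST, and OB SostKO vs OB WT + rhDKK1). At an unadjusted p under 0.05, 3, 0 and 0 of the 30 genes and 607, 382 and 123 of all genes differed. The 3 were SREBF2, ACACA and SCD, each lower with OB SostKO than with OB WT + rhSOST, by -0.25 (95% interval -0.50 to -0.0041), -0.18 (-0.35 to -0.01) and -0.23 (-0.43 to -0.03), with an adjusted p of 0.800. The interval lay within 1.5-fold for 29 of 30 genes in each of these comparisons, FASN being the exception. Of all 14863 genes it did for 13776, 13997 and 14144.

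FASN, the synthase of palmitate, varied most between arrays of the same group. It read 8.73 and 8.99 on the untreated arrays, 8.18 and 8.85 with OB SostKO, 8.95 and 8.11 with OB WT + rhDKK1, and 8.91, 8.48 and 9.33 with OB WT + rhSOST. Low and high arrays occurred in each co-culture group, so that the differences of -0.34, -0.33 and 0.05 came with intervals as wide as -1.12 to 0.44. Its SD within groups was 0.44, at the 99.4th percentile of all genes, where the median was 0.10 for the 30 genes and 0.11 for all.

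The deviations of other genes were set beside those of FASN. With each group mean subtracted, FASN correlated across the 9 arrays with SC5D (r = 0.94), LSS (0.89), SREBF2 (0.86) and ACACA (0.85), and inversely with FDPS (-0.89) and PMVK (-0.77). Of the 29 other genes, 10 had an r over 0.5 and 8 under -0.5, where 23.4% and 22.1% of all genes did. The arrays' medians, after the same subtraction, correlated with FASN at -0.91 and with FDPS at 0.97, and their part in these patterns was not tested. These coefficients describe 9 deviations that sum to 0 in each group, so that the arrays of a group of 2 mirror each other, and they were computed after the spread of FASN had been seen.

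**Figure D4:**
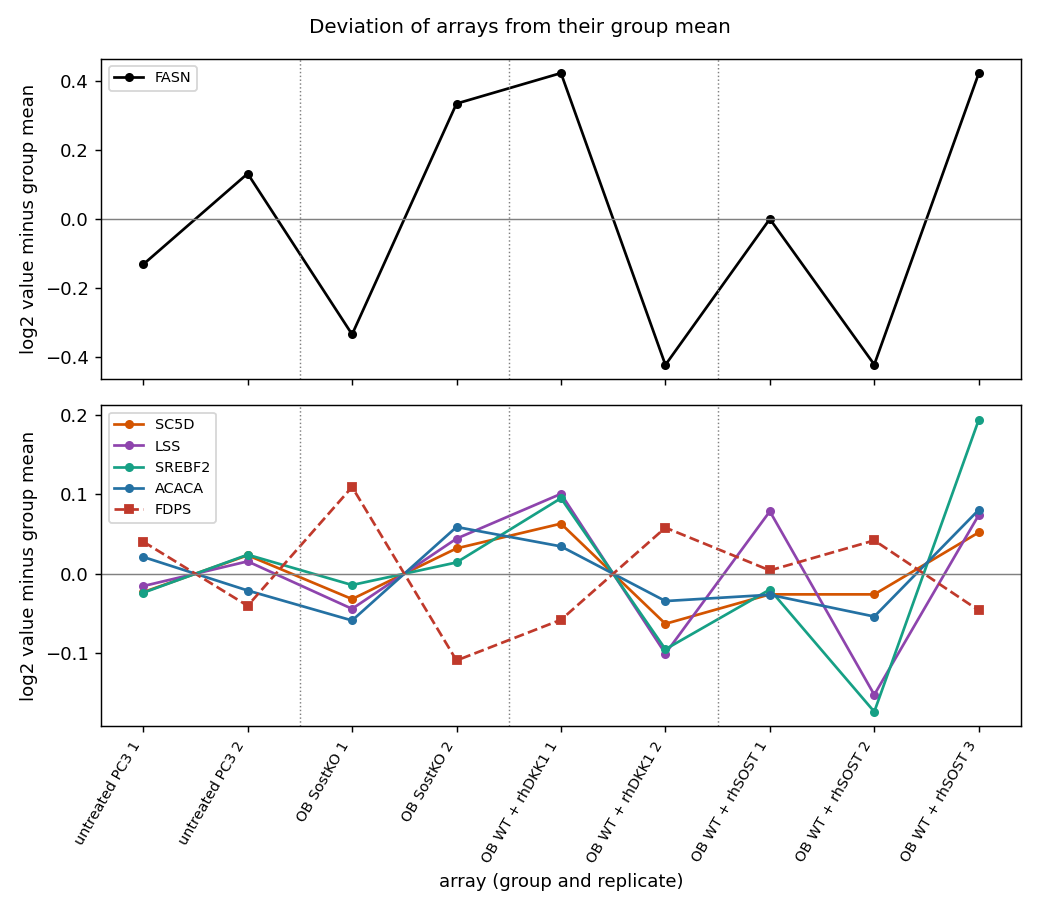
Deviation of each array from its group mean in log2 units, for FASN (upper panel) and for 5 genes (lower panel, with a finer axis), arrays in order of group. SC5D, LSS, SREBF2 and ACACA follow the FASN line with r from 0.85 to 0.94, and FDPS (dashed) runs against it at -0.89.

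The array carries several probe sets for many of these genes, and they did not always go the same way. Of 68 probe sets of the 30 genes 65 passed the filter, and 19 genes had more than 1. In 17 of the 19 the probe sets had opposite signs in at least 1 comparison with untreated PC3. The share among all genes with several kept probe sets was not computed. Tested over all 33970 probe sets kept, none of the 65 passed in any of these comparisons, where 1.62%, 1.75% and 3.99% of all did. At an unadjusted p under 0.05 the counts were 10, 13 and 8 of 65. Over all probe sets kept this count was not computed. By gene, 3081, 3173 and 3507 of all 14863 were under it.

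In 4 genes the probe sets lay more than 0.5 apart in their log2 differences. For EBP, 213789_at read 6.33 and 6.13 untreated, 7.21 and 7.16 with OB SostKO, 6.90 and 6.97 with OB WT + rhDKK1, and 6.93, 6.98 and 6.31 with OB WT + rhSOST. It was 0.95, 0.70 and 0.51 above untreated PC3 with 6 of 7 co-culture arrays above both untreated arrays (adjusted p over all probe sets kept 0.0664, 0.128 and 0.179), while 202735_at differed by 0.04, 0.02 and 0.02 and 231320_at by 0.20, -0.01 and 0.0047. For SQLE, 213577_at differed by 0.36, 0.34 and -0.31, with OB WT + rhSOST array 3 at 7.61 and the other 8 arrays between 8.52 and 9.23. The dim 1557352_at of SQLE differed by 0.61, 0.81 and 0.35 and 213562_s_at by -0.39, -0.12 and -0.39. For MVK, 215649_s_at differed by -0.61, -0.48 and -0.72, but the untreated arrays themselves read 7.43 and 6.39. For IDI1, 208881_x_at followed the brightest probe set at 0.34, 0.30 and 0.27, 233014_at differed by 0.41, 0.53 and 0.64, and 242065_x_at by 0.18, 0.09 and -0.02.

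The remaining disagreements were smaller and mostly about genes near no change. For SCD, 200831_s_at differed by -0.54, -0.43 and -0.30 and was below both untreated arrays on all 7 co-culture arrays (8.17 to 8.72 against 8.93 and 8.89), without passing (adjusted p 0.108, 0.172 and 0.244). The other SCD probe sets, 211708_s_at and 211162_x_at, differed by -0.19, -0.08 and -0.19, and by -0.20, -0.19 and -0.21. For LPIN1, 212276_at differed by -0.09, -0.13 and -0.04 and 212272_at by -0.21, -0.03 and -0.17, against the positive values of the brightest. For SREBF2, 201248_s_at differed by -0.32, -0.35 and -0.04, like the brightest, and 242748_at by 0.09, -0.07 and -0.02. For INSIG1, 201625_s_at differed by 0.30, 0.43 and 0.21 and 201627_s_at by -0.15, 0.06 and -0.03. For DHCR7, 201790_s_at differed by -0.23, -0.14 and 0.03, and for SREBF1, 1558875_at by 0.0007, -0.36 and -0.18. For ELOVL6, 210868_s_at differed by -0.32, -0.16 and -0.26 and 227491_at by 0.08, 0.10 and 0.09. For FASN, 217006_x_at differed by 0.09, -0.09 and -0.04 and read 5.84 to 6.29 over the 9 arrays. Those of LSS, NSDHL, ACACA, ACLY, FADS2 and ABCA1 lay at most 0.24 apart.

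**Figure D5:**
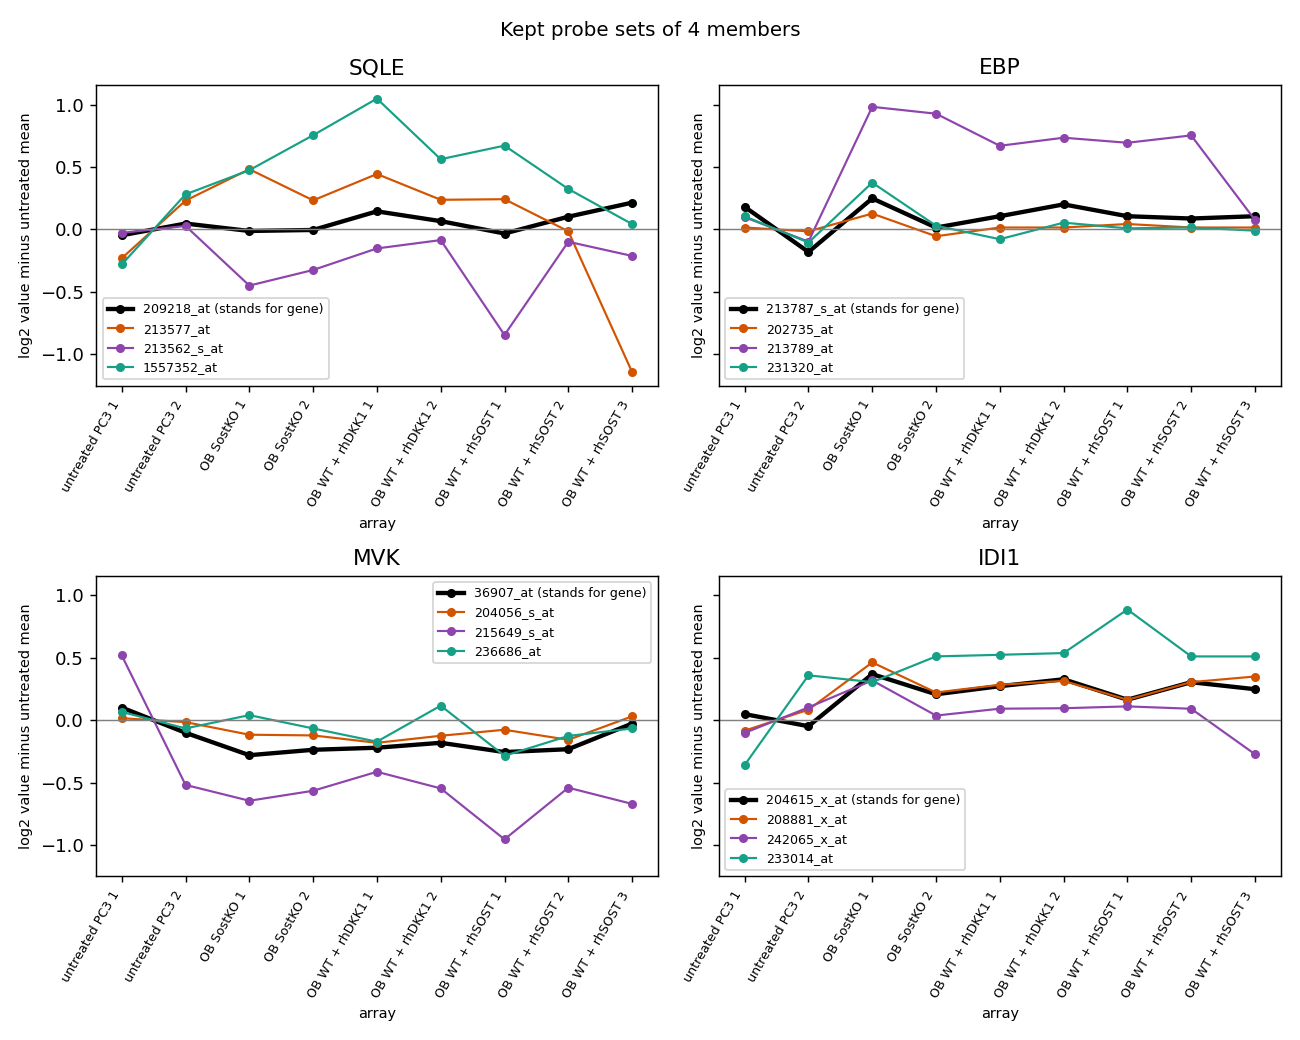
Every kept probe set of SQLE, EBP, MVK and IDI1 on the 9 arrays, as a log2 difference from the mean of the untreated arrays; the thick black line is the brightest probe set, which stands for the gene. In EBP 213789_at is 0.95, 0.70 and 0.51 above untreated PC3 on average, and the other 3 probe sets between -0.01 and 0.20; in SQLE 213577_at drops on OB WT + rhSOST array 3, where it read 7.61.

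Genes next to the pathway were counted in 4 further lists. Of 17 other sterol and SREBP genes 12 were tested, and 0, 0 and 1 passed as higher against untreated PC3 (2.07%, 2.5% and 4.87% of all genes), none as lower. That gene was LBR, a sterol reductase and lamin receptor of the inner nuclear membrane, which read 9.77 and 10.07 untreated and 10.29, 10.38 and 10.31 with OB WT + rhSOST (0.41, adjusted p = 0.0383). It also read higher with OB SostKO (10.16 and 10.28) and OB WT + rhDKK1 (10.28 and 10.28). Those differences of 0.30 and 0.36 did not pass (limma adjusted p = 0.149 and 0.0910). Of 16 genes of sterol traffic and efflux 15 were tested, and 0, 1 and 1 passed as higher (the same shares of all genes apply), each time NPC2, the lysosomal carrier that hands cholesterol on. NPC2 read 12.10 and 12.00 on the untreated arrays and 12.31 to 12.45 on the 7 co-culture arrays, at 0.31 (adjusted p = 0.0581), 0.32 (0.0469) and 0.37 (0.0152).

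Of 20 other fatty acid genes 19 were tested, with 1, 1 and 2 higher and 1, 0 and 1 lower, in all 10.5%, 5.26% and 15.8% of them beside 3.72%, 4.26% and 6.97% of all genes. ACACB, the mitochondrial acetyl-CoA carboxylase whose malonyl-CoA restrains fatty acid oxidation, rose in all 3 comparisons, from 7.09 and 7.16 to between 7.57 and 7.79 on the co-culture arrays (0.51, 0.49 and 0.54, adjusted p = 0.0216, 0.0229 and 0.0084). SCD5, a second stearoyl-CoA desaturase, was higher with OB WT + rhSOST (0.36, adjusted p = 0.0456). With OB SostKO and OB WT + rhDKK1 it differed by 0.24 and 0.32, without passing. THRSP, which promotes fatty acid synthesis, was lower with OB SostKO (-0.44, adjusted p = 0.0444) and OB WT + rhSOST (-0.36, adjusted p = 0.0449), from 5.40 and 5.13 to between 4.78 and 4.93, close to the level of the filter (4.82 to 4.92 over the arrays). With OB WT + rhDKK1 it differed by -0.31, without passing.

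Of 15 genes of the PPAR receptors and fatty acid use 14 were tested, with 0, 2 and 3 higher and 1, 1 and 1 lower, in all 7.14%, 21.4% and 28.6% of them beside the same 3.72%, 4.26% and 6.97% of all genes. The list was chosen with results of these data known, and the difference in shares was not tested. PPARD, a receptor that switches on genes of fatty acid use, fell in all 3 comparisons, from 11.18 and 11.08 to between 10.48 and 10.74 (-0.58, -0.55 and -0.46, adjusted p = 0.0141, 0.0155 and 0.0141). PPARG, the receptor known for fat storage, was higher with OB WT + rhDKK1 (0.43, adjusted p = 0.0225) and OB WT + rhSOST (0.32, adjusted p = 0.0359), and 0.33 with OB SostKO (adjusted p = 0.0560). CPT2, which turns acylcarnitine back into acyl-CoA inside mitochondria, was higher in the same pair of comparisons (0.51 and 0.38, adjusted p = 0.0316 and 0.0459), and PPARA with OB WT + rhSOST (0.53, adjusted p = 0.0215). With OB SostKO and OB WT + rhDKK1 PPARA differed by 0.43 and 0.41, without passing. Effects that passed in some comparisons were not shown to differ between them, since no gene differed between the co-cultures.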

How the data were processed

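RNA of PC3 cells was hybridised to Human Genome U133 Plus 2.0 arrays, 9 in all. The values deposited by the authors are log2 intensities from RMA, per the submitters' processing notes; software and version are not given in the sources used here. Of 54675 probe sets, 62 controls were set aside, and those at or above the 40th percentile of an array on at least 2 arrays were kept: 33970, of which 28244 carry 1 gene symbol, 1307 several and 4419 none. Symbols were updated through RefSeq (GRCh38.p14). The probe set with the highest mean stood for a gene, giving 14863 genes. One mean per group was fitted to all 9 arrays with limma 3.58.1 in R 4.3.3 (lmFit and eBayes), with Benjamini-Hochberg adjustment over all genes and a threshold of 0.05, after being tested on simulated data. The study's methods name ANOVA, Tukey's comparisons and a paired test without tying them to the arrays, whose analysis they refer to an earlier publication. The number of arrays limits the precision.

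The 34 genes and the further lists were chosen with earlier results of these data known. Values on every array are given for those of the 34 genes that passed, the 2 of each role with the smallest p, and SREBF1, SREBF2, SCAP, INSIG1, ABCA1 and SCD. Of these last genes, SCD is also in a list of the study. MVD and FASN were added after their values had been seen. Alternatives changed the filter, the normalization, the probe set rule, the arrays fitted, the threshold and the test, left out each array, and used the replicate number as a block. Replicate numbers are those of the labels. Some marker genes are not reported here.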

Additional observations from a re-analysis of the deposited data

How the results depend on the processing

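Every limma alternative gave FDPS a positive difference. The filters, the mean over its only kept probe set and the fit of 2 groups cannot change that difference, so its sign there is no test. Its call was kept in all 3 comparisons with the 60th percentile filter (limma adjusted p = 0.0319, 0.0368 and 0.0323). Apart from leaving out single arrays, no other limma alternative had an adjusted p under 0.05 in all 3. The count of genes higher than untreated PC3 was 1 in each comparison. It was 0 in all 3 with no filter, with only the 2 groups compared, with the replicate block, with a fold of at least 2 required, and by ANOVA with Tukey's comparisons or the methods' paired test after Benjamini-Hochberg. With cyclic loess it was 0 for OB WT + rhDKK1 and OB WT + rhSOST, and with the mean of a gene's probe sets 0 for OB WT + rhDKK1. Among all genes, 553, 633 and 1036 passed in either direction in the main fit. Only 0, 58 and 608 did with the 2 groups compared. The counts were 436, 517 and 841 with no filter and 347, 406 and 488 with the replicate block. They were 625, 715 and 917 with cyclic loess and 410, 457 and 727 with the mean of probe sets. Counts over all genes with the fold, Tukey's comparisons or the paired test were not computed. At unadjusted thresholds the count of higher genes among the 30 was 3, 2 and 2 by Tukey's comparisons. By limma, chosen after seeing the data, it was 3, 4 and 4, beside 1575, 1668 and 2305 of all 14863 genes. By the methods' paired test it was 0 for OB WT + rhDKK1 and OB WT + rhSOST. The count of lower genes was 0, and unadjusted 2 and 1 by the methods' paired test and 3 and 2 by limma for OB SostKO and OB WT + rhDKK1. Unadjusted by limma, 1506 and 1505 of all genes were lower in the same comparisons. Between co-cultures the count was 0, and unadjusted 2, 1 and 1 by the methods' paired test. Unadjusted by limma it was 3 for OB SostKO vs OB WT + rhSOST, beside 607 of all genes. Leaving out each array gave 0 to 1 higher genes in each comparison and 0 to 1 lower genes with OB SostKO, and a poly-A control difference of 4.33 to 5.01. With the replicate block the adjusted p of FDPS was 0.0824, 0.0919 and 0.0985; same-numbered arrays deviated from their group means with correlations of -0.57 to 0.31, so the numbers were not taken to pair the arrays. The cause of these changes was not tested. With no filter 19775 genes were tested, and fewer arrays were fitted where arrays were left out. Reversals of sign among the genes given on every array were all of uncalled differences, the largest of them the -0.33 of FASN with OB WT + rhDKK1. With the mean of probe sets these were DHCR7 at -0.064 (OB SostKO) and -0.014 (OB WT + rhDKK1), LPIN1 at -0.045 (OB SostKO) and -0.024 (OB WT + rhSOST), ABCA1 at 0.032 and SCD at -0.17 (OB WT + rhSOST), and INSIG1 at 0.033 (OB SostKO); STARD4 was -0.011 with cyclic loess (OB SostKO) and -0.013 with the replicate block (OB WT + rhSOST), where SCD was -0.0084. Leaving out each array in turn, ABCA1 went from -0.41 to 0.026, from -0.052 to 0.029 and from -0.037 to 0.010, STARD4 from -0.083 to 0.085, from -0.021 to 0.15 and from -0.013 to 0.19, and SCAP from -0.055 to 0.21, from -0.10 to 0.16 and from -0.0069 to 0.26 in the 3 comparisons; with OB SostKO INSIG1 went from -0.20 to 0.093, and with OB WT + rhSOST SREBF2 went from -0.13 to 0.055, SREBF1 from -0.16 to 0.0074 and SCD from -0.0084 to 0.098. FASN with OB WT + rhSOST was -0.0040 with cyclic loess and -0.16 with the replicate block and went from -0.16 to 0.26 leaving out each array, and with OB WT + rhDKK1 from -0.75 to 0.096; the alternatives for FASN and MVD were chosen after seeing the data.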
